A study of Mus musculus with 6 samples.

Results

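The 10 genes described here encode the MHC class II antigen presentation machinery of the mouse. They were chosen by name, with earlier results of these data known: *H2-Aa*, *H2-Ab1*, *H2-Eb1*, *H2-DMa*, *H2-DMb1*, *H2-DMb2*, *H2-Oa*, *H2-Ob*, *Cd74* and *Ciita*. All 10 were found among the 27179 genes of the count table, and all 10 passed the limit on low counts that left 11005 genes for testing. The data are RNA-seq counts of germinal center (GC) B cells from mouse spleen, in 6 libraries. The WT group held 3 libraries and the *Il21r*-/- group, which lacks the receptor for the T cell cytokine IL-21, held 3 libraries. Each group had 1 library on day 7, 1 on day 10 and 1 on day 14 after immunization with the hapten NP coupled to the carrier protein KLH in alum. The background strain was C57BL/6 in both groups. The study gives an age range, with matching for age and sex, for its mice as a whole and not by library. The cells were sorted as NP-binding, IgG1+, B220+ and CD38-, and negative for CD138, IgM, IgD and Gr1.

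Some limits of the groups bear on every value. *Il21r* was deleted in the germline, so the receptor was not missing from B cells alone. The study's methods state that its experiments other than a labelling time course used irradiated hosts given bone marrow of 1 genotype. In such hosts T cells also derive from the donor marrow. The series' description assigns each library to a mouse of its own, while the methods speak of more mice per genotype than there are libraries. A replicate is therefore a library of another day, and p-values measure the spread between these libraries. In bulk RNA, a change in the share of cells that express a gene and a change in RNA per cell cannot be told apart.

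MHC class II molecules are heterodimers of an alpha and a beta chain that carry peptides of endocytosed antigen to the cell surface, where CD4+ T cells read them. GC B cells present antigen taken up through their B cell receptor to T follicular helper cells, which return help. New class II dimers are held by the invariant chain (*Cd74*), proteases trim it, H2-DM exchanges its remnant for peptide, and H2-O restrains H2-DM. The coactivator CIITA (*Ciita*) is recruited to class II promoters by factors bound to a conserved X-Y module, in which the X box is bound by RFX and the Y box, an inverted CCAAT element, by NF-Y.

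Of the 10 genes, 8 lie together on chromosome 17 between positions 34092379 and 34316674 of GRCm38, a stretch of 224 kb. A RefSeq promoter window (GRCm38.p6, 250 bases before to 50 bases after a gene start) was found for 7 of the 10 genes, and *H2-Ab1*, *Cd74* and *Ciita* were not matched. In 6 of these 7 genes the window held AAC followed after 22 to 28 bases by TGATTGG on the strand of the gene. The part of each window around this module is shown for the 6 genes in which it was found. The capitals mark AAC and TGATTGG.
*H2-Aa* (chr17:34287863-34287917, minus strand): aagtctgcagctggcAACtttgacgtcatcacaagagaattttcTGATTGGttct
*H2-Eb1* (chr17:34305762-34305816, plus strand): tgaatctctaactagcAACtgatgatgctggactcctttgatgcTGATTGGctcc
*H2-DMb1* (chr17:34153084-34153138, plus strand): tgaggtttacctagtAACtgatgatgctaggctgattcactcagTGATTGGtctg
*H2-DMb2* (chr17:34145113-34145167, plus strand): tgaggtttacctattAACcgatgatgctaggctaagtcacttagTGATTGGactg
*H2-Oa* (chr17:34092290-34092344, plus strand): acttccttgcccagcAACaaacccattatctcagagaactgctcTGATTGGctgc
*H2-Ob* (chr17:34238802-34238856, plus strand): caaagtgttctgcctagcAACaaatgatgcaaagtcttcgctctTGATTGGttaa

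TGATTGG began 45 to 92 bases before the start used for the window in these 6 genes. For *H2-DMb2* that start lies inside the annotated gene, which begins at position 34143229. *H2-DMa*, which encodes the alpha chain of H2-DM, had windows for 2 starts, and neither held the module in these letters. These windows begin at 34122582 and 34125268, inside the annotated gene (34119693 to 34139101). The rest of the gene and its annotated start were not searched, so a module elsewhere in *H2-DMa* could not be seen. Among all 32851 promoter windows, 101 (0.307%) held the module on the strand of the gene, and 237 (0.721%) on either strand. TGATTGG alone was in 1318 windows (4.01%) on the strand of the gene, and the shorter CCAAT, which TGATTGG contains on the opposite strand, was in 37.4% of windows on either strand. The letters and the spacing were set after the sequences of these genes had been seen, so the shares are a description. A first search with 24 to 32 bases between the elements found 5 of the genes and 135 windows (0.411%) and missed *H2-Ob*. A range of 23 to 28 bases found the same 6 genes and 93 windows (0.283%). In *H2-Oa* a second AAC lies 22 bases before TGATTGG.

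The targeted gene was checked first. *Il21r* had 346, 263 and 247 CPM (counts scaled to a common library size, with TMM factors) in WT on days 7, 10 and 14, and 106, 128 and 113 CPM in *Il21r*-/-. Its log2 fold change over the 3 days was -1.29 (SE 0.13, edgeR quasi-likelihood test, adjusted p = 0.00137), so the transcript was reduced and not absent. Libraries held 21353438 to 27435124 counted reads, which leaves counting error small for all 10 genes.

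*Cd74*, *H2-Aa*, *H2-Ab1* and *H2-Eb1* were among the most abundant transcripts of these cells, at places 4, 8, 10 and 23 of all genes tested. These places are by mean level per gene length in WT. The others ranked lower, from place 154 for *H2-DMa* to place 2821 for *Ciita*. Together the 10 genes took 3.37, 2.55 and 2.40% of all counts in WT on days 7, 10 and 14, and 4.10, 3.71 and 3.60% in *Il21r*-/-. Each *Il21r*-/- library was above every WT library by this measure. All 10 genes had a higher CPM in *Il21r*-/- than in WT on each of the 3 days, as did 27.9% of all genes tested. The lowest *Il21r*-/- library was above the highest WT library for 7 of the 10 genes, against 10.0% of all genes tested.

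**Figure D1:**
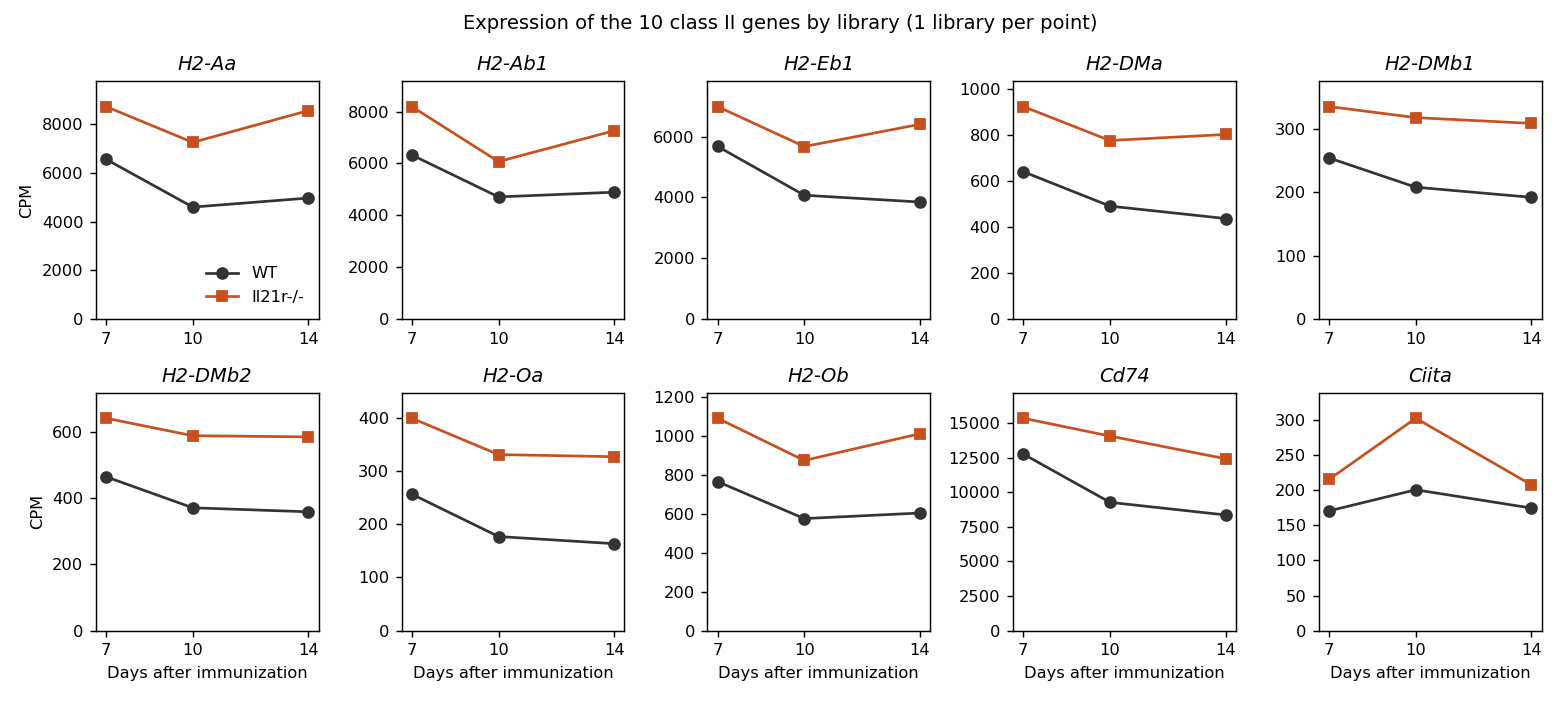
CPM of each of the 10 class II genes (y axes, from 0) against days after immunization (x axes), with 1 library per point, WT as circles and *Il21r*-/- as squares. The *Il21r*-/- point lies above the WT point of the same day in every panel, and for *H2-Aa* the *Il21r*-/- libraries sit between 7265 and 8738 CPM and the WT libraries between 4606 and 6571.

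The classical chains were next to *Cd74* in abundance. *H2-Aa*, the alpha chain of I-A, had 6571, 4606 and 4977 CPM in WT on days 7, 10 and 14, and 8738, 7265 and 8572 CPM in *Il21r*-/-. The groups did not overlap. *H2-Ab1*, the beta chain of I-A, had 6329, 4712 and 4893 CPM in WT and 8195, 6072 and 7265 CPM in *Il21r*-/-, and the *Il21r*-/- library of day 10 lay below the WT library of day 7. *H2-Eb1*, the beta chain of I-E, had 5678, 4073 and 3849 CPM in WT and 6987, 5673 and 6404 CPM in *Il21r*-/-. Its groups overlapped by a narrow margin, between WT on day 7 and *Il21r*-/- on day 10. *H2-Ea*, the alpha chain of I-E, which is known to be defective in C57BL/6 mice, had only 10 to 22 counts in a library.

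*Cd74*, the invariant chain, lies on chromosome 18 (60803849 to 60812652) and was the most abundant of the 10 genes. It had 12752, 9271 and 8356 CPM in WT and 15342, 14050 and 12413 CPM in *Il21r*-/-. Here too the groups overlapped, because WT on day 7 was above *Il21r*-/- on day 14.

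The log2 fold changes of these 4 genes over the 3 days were 0.61 for *H2-Aa* (SE 0.16, adjusted p = 0.0614), 0.44 for *H2-Ab1* (SE 0.16, adjusted p = 0.150), 0.50 for *H2-Eb1* (SE 0.15, adjusted p = 0.0965) and 0.48 for *Cd74* (SE 0.14, adjusted p = 0.0869). None passed the threshold of 0.05 in edgeR's quasi-likelihood test with a linear effect of day, and all 4 had an unadjusted p under 0.05. With day as a block, which pairs the WT and *Il21r*-/- libraries of a day, all 4 were differentially expressed (adjusted p = 9.9e-07 for *H2-Aa*, 9.5e-05 for *H2-Ab1*, 3.8e-05 for *H2-Eb1* and 5.2e-05 for *Cd74*).

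The genes of the peptide editor H2-DM rose in *Il21r*-/-. *H2-DMa* had 639, 490 and 436 CPM in WT on days 7, 10 and 14, and 922, 774 and 801 CPM in *Il21r*-/-. *H2-DMb1*, a beta chain of H2-DM, had 254, 208 and 192 CPM in WT and 335, 318 and 308 CPM in *Il21r*-/-. *H2-DMb2*, the other beta chain, had 464, 371 and 359 CPM in WT and 641, 588 and 585 CPM in *Il21r*-/-. The groups overlapped for none of the 3 genes, and for *H2-DMb1* the *Il21r*-/- libraries lay within a narrow range. The log2 fold changes over the 3 days were 0.69 (SE 0.12, adjusted p = 0.0118), 0.56 (SE 0.099, adjusted p = 0.0132) and 0.61 (SE 0.10, adjusted p = 0.0120) in edgeR's quasi-likelihood test. The transcripts of *H2-DMb1* and *H2-DMb2* share 11.3% and 10.3% of their 100-base stretches with each other, so some reads could not be assigned to one of them by sequence. With the counts of the 2 genes summed, the log2 fold change was 0.59 (adjusted p = 0.0149).

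The genes of H2-O, the inhibitor of H2-DM found mainly in B cells, rose as well. *H2-Oa* had 256, 177 and 163 CPM in WT and 399, 331 and 327 CPM in *Il21r*-/-. This was the largest difference among the 10 genes, with a log2 fold change of 0.84 (SE 0.12, adjusted p = 0.0056). *H2-Ob* had 765, 575 and 604 CPM in WT and 1090, 873 and 1010 CPM in *Il21r*-/-, with a log2 fold change of 0.62 (SE 0.13, adjusted p = 0.0298). The groups overlapped for neither gene.

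*Ciita*, on chromosome 16 (10480014 to 10531064), encodes the coactivator CIITA and had the smallest difference. It had 170, 200 and 174 CPM in WT and 215, 302 and 207 CPM in *Il21r*-/-. The *Il21r*-/- library of day 10 stood above the other 2 of its group, while the groups did not overlap. The log2 fold change was 0.41 (SE 0.15, adjusted p = 0.172), and it passed the threshold with day as a block (adjusted p = 0.00053). *Ciita* and its neighbor *Dexi* overlap on the genome, as do *H2-DMa* and *Brd2*, *H2-Oa* and *BC051537*, and *Cd74* and *Mir5107*. How reads in the shared stretches were counted is not known, since the strand setting of the counting is not given in the sources used here.

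In all, 5 of the 10 genes were differentially expressed over the 3 days, all of them higher in *Il21r*-/-. These were the H2-DM and H2-O genes. The line did not follow the size of the difference: *H2-Aa* (0.61, SE 0.16) was not called and *H2-DMb1* (0.56, SE 0.099) was. Of all genes tested, 4.52% were called higher in *Il21r*-/-. The median log2 fold change of the 10 genes was 0.59, with a range from 0.41 to 0.84, against a median of 0.01 over all genes. With day as a block all 10 genes were differentially expressed, and 13.6% of all genes were called higher in *Il21r*-/-. The count of 5 rested on single libraries. It was 0 without the WT library of day 14, 1 without WT of day 10 or without *Il21r*-/- of day 14, 2 without *Il21r*-/- of day 7, and 9 without *Il21r*-/- of day 10.

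**Figure D2:**
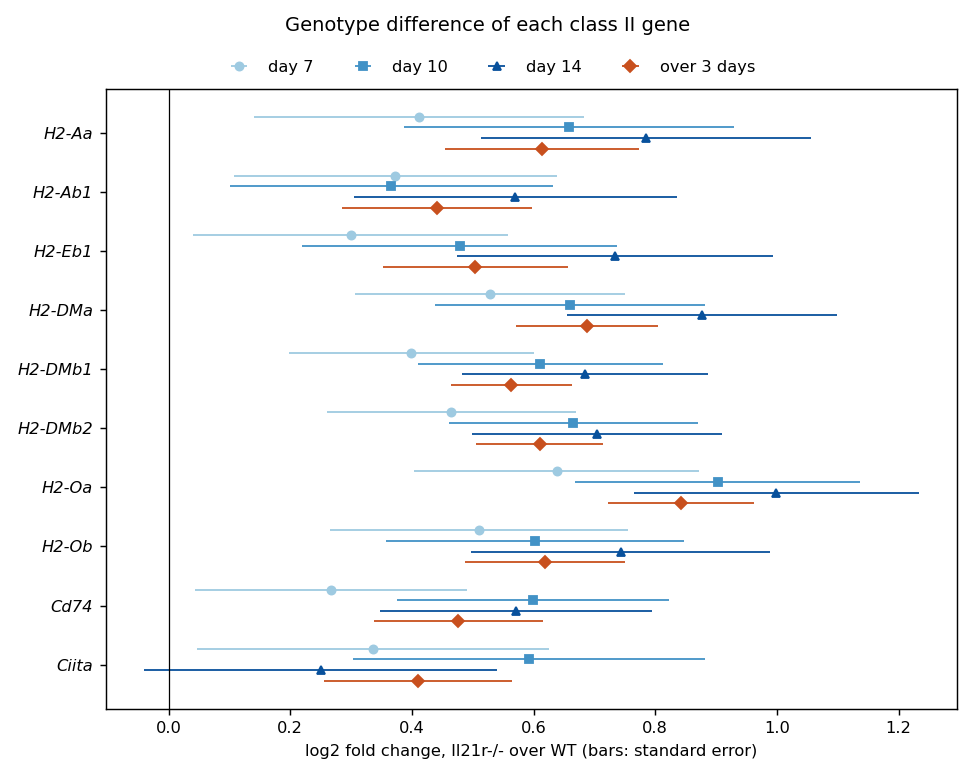
Log2 fold change of *Il21r*-/- over WT (x axis) for each of the 10 genes (y axis) on day 7, day 10, day 14 and over the 3 days, with bars for the standard error of the fitted model. All 40 estimates lie to the right of 0, from 0.25 for *Ciita* on day 14 to 0.999 for *H2-Oa* on day 14.

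The genotype effect was then tested on each day, with the spread taken from the fit over all 6 libraries because a day holds 1 library of each genotype. On day 7 the log2 fold changes ran from 0.27 (*Cd74*) to 0.64 (*H2-Oa*), with a median of 0.41. None of the 10 was called by edgeR's likelihood ratio test or by DESeq2, 5 had an unadjusted p under 0.05, and 0.872% of all genes were called higher in *Il21r*-/-. On day 10 the median was 0.61, and *H2-Oa* (0.90, adjusted p = 0.0071) and *H2-DMb2* (0.67, adjusted p = 0.0417) were called, against 2.60% of all genes. The call of *H2-DMb2* was lost under 8 of 11 alternatives. On day 14 the median was 0.72 and 4 genes were called, against 2.55% of all genes. These were *H2-Oa* (0.999, adjusted p = 0.0020), *H2-DMa* (0.88, adjusted p = 0.0057), *H2-DMb2* (0.70, adjusted p = 0.0241) and *H2-DMb1* (0.68, adjusted p = 0.0269). The count on day 14 was 7 without *Il21r*-/- of day 10 and 2 without WT of day 10 or *Il21r*-/- of day 7, and *H2-Oa* was also called on day 7 without *Il21r*-/- of day 10. With dispersions estimated from a model that pairs the libraries of a day, 3, 8 and 9 of the 10 genes were called on days 7, 10 and 14.

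The medians of the 3 days stand in order of day, but a difference in day trend between genotypes was not detectable. The difference in slope was positive for 9 of the 10 genes, with the exception of *Ciita*. No gene of the 10 passed edgeR's quasi-likelihood test of the interaction (adjusted p = 1 for each, 0 with an unadjusted p under 0.05). None of the 11005 genes did either, by edgeR or by DESeq2, and 118 of them had an unadjusted p under 0.05. Without the WT library of day 7 or without the *Il21r*-/- library of day 14 the difference in slope changed sign for 8 of the 10 genes.

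Levels tended to be lower on day 14 than on day 7, but the fall was not steady. From day 10 to day 14 *H2-Aa*, *H2-Ab1* and *H2-Ob* rose in both genotypes, and *H2-Eb1* and *H2-DMa* rose in *Il21r*-/-. The other levels fell between these days. On day 14, WT levels were between 63.8% (*H2-Oa*) and 102% (*Ciita*) of those on day 7, and *Il21r*-/- levels were between 80.9% (*Cd74*) and 98.1% (*H2-Aa*). The fitted slope was negative for all 10 genes, and over 7 days it came to -0.45 on the log2 scale for *H2-Oa* (SE 0.15, adjusted p = 0.110) and -0.45 for *Cd74* (SE 0.17, adjusted p = 0.157). None of the 10 genes was called in edgeR's quasi-likelihood test of the day trend, 3 had an unadjusted p under 0.05, and DESeq2 called 1. Without *Il21r*-/- of day 10, edgeR called 2. The slope turned positive for *H2-Aa* without WT of day 7, and for *Ciita* without either library of day 14. Of all genes tested, 3.36% were called as falling with day.

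Levels between genes were compared per gene length, as RPKM from the summed exon length in the count table. In WT the order was *Cd74* (7156 ± 1639, SD, n = 3), *H2-Aa* (5037 ± 977), *H2-Ab1* (4452 ± 743), *H2-Eb1* (2716 ± 598), *H2-DMa* (668 ± 135), *H2-DMb2* (506 ± 73.5), *H2-Ob* (243 ± 38.3), *H2-Oa* (190 ± 47.9), *H2-DMb1* (170 ± 25.1) and *Ciita* (31.9 ± 2.86). The order of the means was the same in *Il21r*-/-. In WT the ranges of neighbors overlapped between *Cd74* and *H2-Aa*, *H2-Aa* and *H2-Ab1*, *H2-DMa* and *H2-DMb2*, *H2-Ob* and *H2-Oa*, and *H2-Oa* and *H2-DMb1*. The steps from *H2-Ab1* to *H2-Eb1*, from *H2-Eb1* to *H2-DMa*, from *H2-DMb2* to *H2-Ob* and from *H2-DMb1* to *Ciita* were larger than the spread of the libraries. By mean RPKM in WT, *Cd74* ranked at place 4 of all genes tested and *Ciita* at place 2821.

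**Figure D3:**
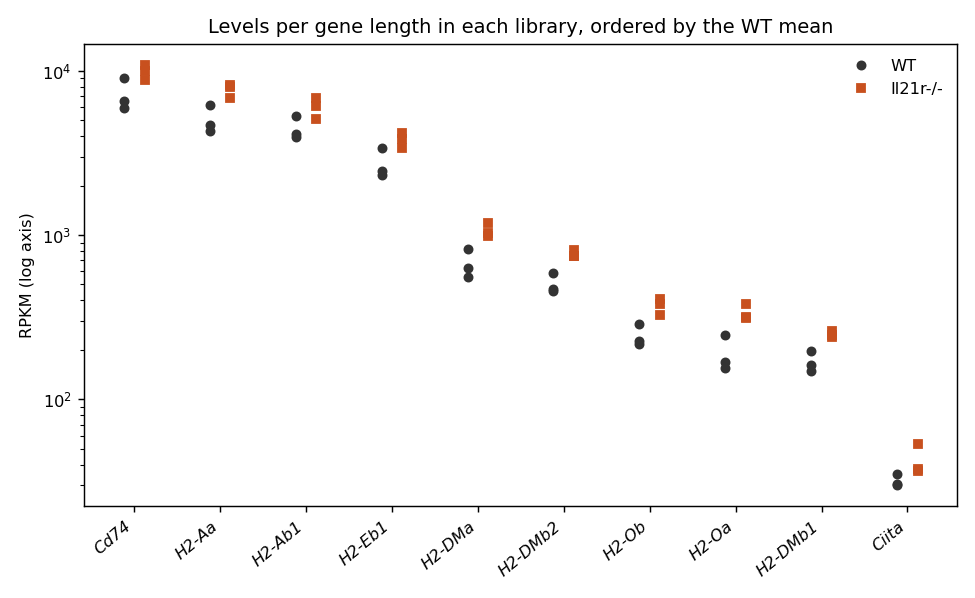
RPKM on a log axis (y axis) in each library for the 10 genes (x axis), ordered by the WT mean, with WT as circles and *Il21r*-/- as squares. *Cd74*, *H2-Aa*, *H2-Ab1* and *H2-Eb1* lie at 2306 RPKM and above, the H2-DM and H2-O genes between 149 and 1180, and *Ciita* lies below all of them, at 29.9 to 53.1.

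Because H2-O restrains H2-DM, the balance of the 2 was compared as the log2 ratio of summed RPKM. The ratio of H2-O to H2-DM was -1.60, -1.72 and -1.61 in WT on days 7, 10 and 14, and -1.52, -1.63 and -1.54 in *Il21r*-/-. The groups overlapped. The mean was -1.56 ± 0.06 (SD, n = 3) in *Il21r*-/- and -1.64 ± 0.07 (n = 3) in WT, a difference of 0.08 (two-sided exact permutation test, p = 0.3, adjusted over 2 ratios 0.6). This test takes no account of day. Within days *Il21r*-/- was higher by 0.081, 0.086 and 0.066, the same direction on 3 of 3 days (exact sign-flip permutation test on the 3 pairs, p = 0.25, the smallest it can give). The direction depended on the genes used: with *H2-Ob* over *H2-DMa* alone the difference was -0.07.

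The ratio of *Cd74* to the 2 chains of I-A was -0.35, -0.33 and -0.57 in WT, and -0.47, -0.26 and -0.69 in *Il21r*-/-. The mean was -0.47 ± 0.21 (SD, n = 3) in *Il21r*-/- and -0.42 ± 0.13 (n = 3) in WT, a difference of -0.06 (two-sided exact permutation test, p = 0.7, adjusted over 2 ratios 0.7). Both genotypes were lowest on day 14, and without the *Il21r*-/- library of day 14 the difference turned to 0.0501. With 3 libraries against 3, the smallest p the unpaired test can give is 0.1, so neither the unpaired nor the paired test could pass 0.05.

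**Figure D4:**
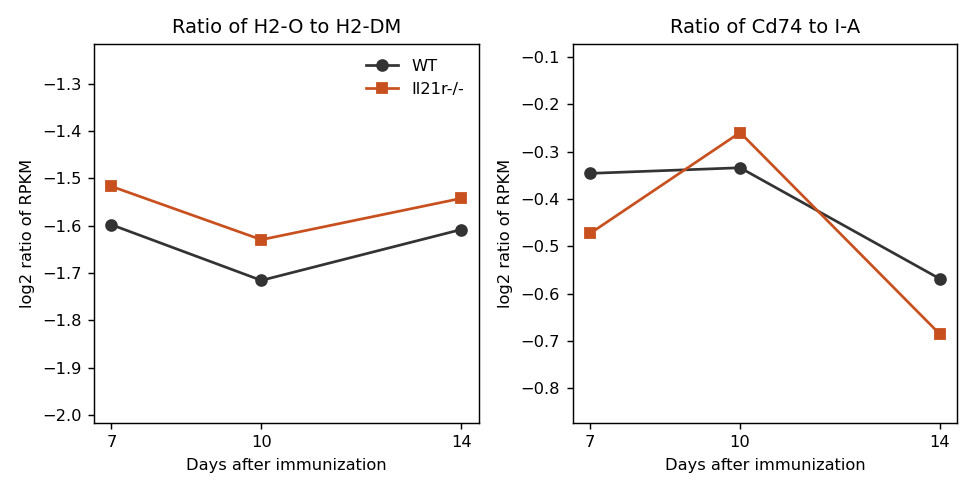
Log2 ratio of summed RPKM (y axes) against days after immunization (x axes) for H2-O to H2-DM (left) and *Cd74* to I-A (right), with 1 library per point, WT as circles and *Il21r*-/- as squares. The left ratio is higher in *Il21r*-/- on each day by 0.066 to 0.086, and the right ratio changes order between days.

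The other genes of the pathway were counted from lists that were not chosen by how they moved in this comparison, although earlier results of these data were known. Of all genes tested, 5.92% were called over the 3 days in either direction (1.40% lower in *Il21r*-/-), and 22.9% with day as a block (9.33% lower). None of 10 enzymes that process antigen and invariant chain was called over the 3 days by edgeR, and their median log2 fold change was 0.24. Cathepsin H (*Ctsh*, 0.37, adjusted p = 0.214) and cathepsin S (*Ctss*, 0.38, adjusted p = 0.102), the protease that trims the invariant chain in B cells, were the most abundant. With day as a block 4 enzymes were called higher in *Il21r*-/-, and these were *Ctss*, *Ctsh*, *Ctsb* and *Ifi30*, the thiol reductase of this pathway. Of 7 genes for the factors that bind the X-Y module none was called, and their median was -0.08. With day as a block *Rfxank*, a subunit of RFX, was called (0.30, adjusted p = 0.0371).

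Among 11 regulators of *Ciita* and receptors of inducing cytokines, 2 rose and 1 fell. *Pax5*, the B cell identity factor, had a log2 fold change of 0.67 (adjusted p = 0.0387), and *Ifngr2*, a chain of the interferon gamma receptor, 0.93 (adjusted p = 0.0043). *Prdm1*, which encodes Blimp-1, a repressor of *Ciita* in plasma cells, fell by 1.64 on the log2 scale (adjusted p = 0.0216). It was near the detection limit, with 34 to 45 counts in a WT library and 6 to 17 in an *Il21r*-/- library. With day as a block, 6 of the 11 regulators and receptors were called, 4 higher and 2 lower in *Il21r*-/-. *Irf4* (0.47, adjusted p = 0.0384) and *Il4ra* (0.25, adjusted p = 0.0211) joined those that rose, and *Spi1*, which encodes PU.1, joined *Prdm1* (-0.22, adjusted p = 0.0378). *Cd83*, which protects surface class II from ubiquitination by MARCH1, rose by 0.93 (adjusted p = 0.0067). *Marchf1*, the ligase itself, had a log2 fold change of 0.08 (adjusted p = 0.790).

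Genes that neighbor the class II genes on chromosome 17 gave a mixed picture, with 1 of 8 tested called. *Btnl2*, a butyrophilin-like gene, fell by 0.88 on the log2 scale (adjusted p = 0.0070), from 24.1, 29.5 and 33.3 CPM in WT to 16.2, 14.4 and 16.3 CPM in *Il21r*-/-. *H2-Eb2*, a further class II beta chain gene with the X-Y letters in its promoter window, had a log2 fold change of 0.47 (adjusted p = 0.0534, and 1.6e-05 with day as a block). Of 12 genes of class I presentation none was called, with a median of 0.12. With day as a block *H2-K1*, *H2-D1*, *B2m* and *Tapbp* were called higher in *Il21r*-/-, with log2 fold changes of 0.24 to 0.32.

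**Figure D5:**
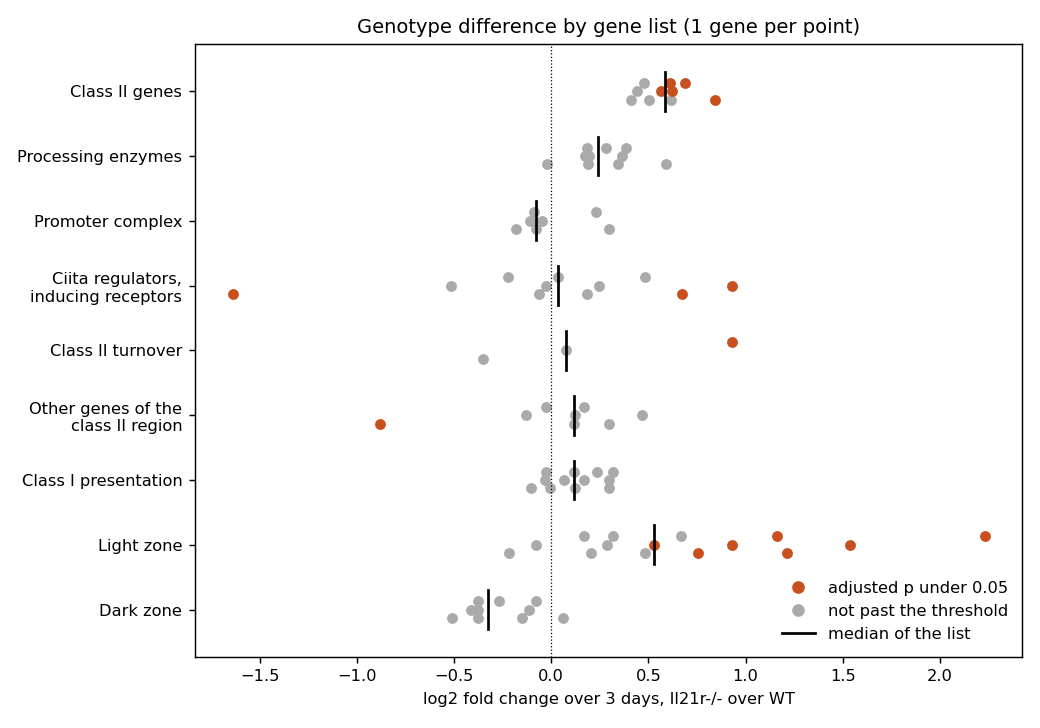
Log2 fold change over the 3 days of *Il21r*-/- over WT (x axis) for each gene of 9 lists (y axis), with 1 gene per point, darker points for adjusted p under 0.05 and a vertical bar for the median of the list. The class II genes lie between 0.41 and 0.84, and the medians of processing enzymes, promoter factors and class I genes are 0.24, -0.08 and 0.12.

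All 12 GC B cell markers were above the limit on low counts, and their summed CPM was 10197 to 12144 in WT and 11017 to 13786 in *Il21r*-/-. Plasma cell markers, mostly *Jchain*, summed to 2524 to 2739 CPM in WT and 2774 to 3621 CPM in *Il21r*-/-, which did not overlap. Of the 4 plasma cell markers tested, *Xbp1* rose (0.39, adjusted p = 0.0396) and *Prdm1* fell. With day as a block all 4 were called, 3 of them higher in *Il21r*-/-. *Sdc1* and *Tnfrsf17* were under the limit on low counts and were not tested. *Sdc1* had 20, 21 and 18 counts in WT on days 7, 10 and 14, and 10, 13 and 9 in *Il21r*-/-. *Tnfrsf17* had 13, 17 and 10 counts in WT, and 14, 4 and 2 in *Il21r*-/-. Neutrophil markers summed to at most 1.06 CPM. Markers of GC zones and of other cells moved with the class II genes in part. Of 15 light zone genes 7 rose (median 0.53), from *Cd40* (0.53, adjusted p = 0.0164), *Cd69*, *Cd83*, *Ebi3*, *Il4i1* and *Fcer2a* to *Gpr183* (2.23, adjusted p = 0.00101), and of 10 dark zone genes none was called (median -0.32, and 5 lower in *Il21r*-/- with day as a block). The summed CPM of the light zone genes was 1386 to 1853 in WT and 2573 to 2811 in *Il21r*-/-, which did not overlap. Among naive and memory B cell markers, *S1pr1* (log2 fold change 1.31, adjusted p = 0.00078), *Klf2* (1.02, adjusted p = 0.0039) and *Ccr6* (1.33, adjusted p = 0.0121) rose, and *Ighm* fell by 0.48 on the log2 scale (adjusted p = 0.0457). Macrophage and monocyte markers summed to 8.90 to 14.9 CPM in WT and 12.8 to 22.6 CPM in *Il21r*-/-, and 1 of 5 tested, *Cd68*, rose (0.62, adjusted p = 0.0449). With day as a block 3 of the 5 were called higher in *Il21r*-/- by edgeR's quasi-likelihood test. These were *Cd68* (0.62, adjusted p = 0.0018), *Adgre1* (1.35, adjusted p = 0.0031) and *C1qa* (1.19, adjusted p = 0.0041). *Adgre1* had 4 to 43 counts in a library and *C1qa* 9 to 76. *Lyz2* and *Csf1r*, also tested, were not called in either fit. *Itgam*, which was under the limit on low counts, went the other way. It had 24, 17 and 2 counts in *Il21r*-/- and 30, 30 and 18 in WT on days 7, 10 and 14. The part of these markers in the class II result was not tested. Dendritic cell markers, which also come with high class II, summed to 71.8 to 77.9 CPM in WT and 54.2 to 70.7 CPM in *Il21r*-/-. Nearly all of this was *Flt3*, *Itgax* had at most 11 counts in a library, and *Batf3* had 0 in all 6. *Zbtb46* went the other way from *Flt3*, with 8, 18 and 11 counts in *Il21r*-/- and 4, 2 and 6 in WT on days 7, 10 and 14. These counts are near the detection limit.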

How the data were processed

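The authors aligned 100-base single-end reads of TruSeq libraries to mm10 with Rsubread, counted them per gene with featureCounts and its inbuilt RefSeq annotation, and deposited whole-number counts without normalization. CASAVA 1.8.2 is named in the submitters' processing notes. Strand and multi-mapping settings are not given in the sources used here. Symbols came from a RefSeq table of GRCm38.p6.

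After removal of genes whose average log2 CPM was under 0, of *Xist* and of Y-linked and Ig variable genes, 11005 of 27179 remained. With edgeR 4.0.16, limma 3.58.1 and R 4.3.3, TMM factors and robust dispersions were computed on genotype plus linear day (3 residual degrees of freedom, biological coefficient of variation 13.1%). Effects over 3 days, day trends and their difference were tested by quasi-likelihood, and effects on a day by likelihood ratio. P-values were adjusted by the Benjamini-Hochberg method across the tested genes. Scripts were tested on simulated data. CPM and RPKM were computed from the counts, CPM with the effective library sizes of the tested genes.

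Deviations from the genotype means correlated between the WT and *Il21r*-/- libraries of a day. Across 11005 genes r was 0.640, 0.413 and 0.645 on days 7, 10 and 14. The deviations still hold the linear effect of day, so they do not show pairing beyond that term. The fit with day as a block was an alternative, beside DESeq2 1.42.0, other filters and normalization, and leaving out each library. The block fit leaves fewer residual degrees of freedom than the main model. Members, gene lists and named genes (all 10 members, called members of each list, and up to 4 abundant others) were chosen with earlier results of these data known. Exceptions named after their values were seen are genes called only with day as a block, *H2-Ea*, and single genes of the marker lists. One of the naive and memory B cell markers is not reported here, nor are counts and sums over that list.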

Additional observations from a re-analysis of the deposited data

How the results depend on the processing

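Among the 10 class II genes, the number called over 3 days was 5, and it was 9 with DESeq2's Wald test, 10 with day as a replicate block, 0 with no day term, and 0 to 9 when 1 library was left out. Over all genes the count of 651 ran from 173 with no day term to 2519 with the block, and from 132 to 2165 without 1 library. On day 7 the 0 called became 1 with the linear day term kept, 3 with the block in the dispersions, and 0 to 1 without 1 library of another day. On day 10 the 2 called became 1 with DESeq2's size factors, with a minimum of 10 counts, with no filter and with DESeq2's Wald test, 5 with the linear term, 8 with the block, and 1 without any 1 library. On day 14 the 4 called became 7 with the linear term, 9 with the block, and 2 to 7 without 1 library. For the day trend the 0 called became 1 with DESeq2, 2 with the likelihood ratio test, and 0 to 2 without 1 library. For the difference in day trend it stayed at 0 under the 11 alternatives, and over all genes it was 0 to 12 without 1 library. The genotype effect of the 10 genes changed sign in none of 130 values over 3 days or 110 values on each day. Without 1 library the slope per day ran from -0.0596 to 0.0065 for *H2-Aa* and from -0.0313 to 0.0262 for *Ciita*. The difference in slope per day ran from -0.0468 to 0.170 for *H2-Aa*, -0.106 to 0.121 for *H2-Ab1*, -0.0341 to 0.145 for *H2-Eb1*, -0.0179 to 0.101 for *H2-DMa*, -0.0140 to 0.0900 for *H2-DMb2*, -0.0188 to 0.139 for *H2-Oa*, -0.0723 to 0.125 for *H2-Ob*, -0.0142 to 0.110 for *Cd74* and -0.132 to 0.150 for *Ciita*. The difference in the ratio of H2-O to H2-DM turned to -0.0695 with *H2-Ob* over *H2-DMa*, and that of *Cd74* to I-A ran from -0.163 to 0.0501 without 1 library. With 1 library per genotype and day, pairing within days leaves both mean differences as they are by construction. The daily differences in the ratio of *Cd74* to I-A were -0.127, 0.074 and -0.117, with the replicate block as pairs (exact sign-flip permutation test, p = 0.5). The cause of these changes was not tested. No spread within a day can be had.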

Other observations

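Over the 6 libraries, the genes whose log2 CPM was most like the mean of *H2-Aa*, *H2-Ab1*, *H2-Eb1* and *Cd74* were *Tespa1* (Pearson r = 0.994), *Ms4a4c* (0.991), *Ltb* (0.989), *Ggh* (0.988) and *Gm20300* (0.988), among 2307 genes that varied at least as much. The 6 points share genotype and day, so the correlations are a description. *Ltb*, the membrane anchor of lymphotoxin, had a mean of 548 CPM in WT and 786 CPM in *Il21r*-/-. Among the 6 class II genes that are not part of that mean, r was 0.961 to 0.983 for 5 genes and 0.38 for *Ciita*.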
